A study of Mus musculus with 9 samples.

Results

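Glycolysis splits glucose into pyruvate in the cytosol, and lactate dehydrogenase and the monocarboxylate transporters then interconvert pyruvate with lactate and move lactate between cells. When oxygen is short, prolyl hydroxylases (the Egln genes) no longer mark HIF-1 alpha and HIF-2 alpha (Hif1a and Epas1) for destruction, and these factors switch on glycolytic enzymes, glucose and lactate transporters, Vegfa and other targets by binding the hypoxia response element. Many steps have isozymes used by different cells, such as Eno2 in neurons and Eno1 in dividing cells. The 35 genes described here are glycolytic enzymes, genes of lactate and glucose transport and HIF pathway genes, chosen by name and matched by symbol to Ensembl genes, and all 35 were found among the 41128 genes of the count table and passed the filter on low counts. They comprise 15 glycolytic enzymes, 6 genes of lactate and pyruvate handling and transport, 2 phosphofructokinase-2 regulators, 4 hypoxia factors and oxygen sensors, and 8 other hypoxia targets.

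Bulk RNA sequencing was done on dorsal telencephalon, the part of the forebrain that forms cortex and hippocampus, dissected from P0 pups of the B6:129SF2/J strain. The genotypes were given as TCF4 knockout (KO), TCF4 heterozygote (Het) and wildtype (WT), with 3 libraries each. Counted reads per library numbered between 26355671 and 29445788 in KO, between 24008445 and 29398411 in Het and between 22291940 and 23813314 in WT. The allele, the deleted part of Tcf4, the litter of each pup, and any pooling of pups are not given in the sources used here, so p-values measure only the spread between these libraries. In bulk tissue, fewer cells of a type and less RNA per cell cannot be told apart.

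Tcf4 itself was not lower in the KO-labelled libraries beyond the spread: it had 638, 633 and 611 CPM (counts scaled to library size) in KO, 822, 652 and 719 CPM in Het and 712, 728 and 584 CPM in WT. The log2 fold change was -0.10 in KO over WT (adjusted p = 0.36) and 0.12 in Het over WT (adjusted p = 0.33). Gene counts therefore did not check the genotype labels, and every direction given here rests on the labels. The WT-labelled libraries also stood apart in one respect that touches several of these genes: the share of counted reads in processed pseudogenes was 0.0804 to 0.0939% in KO, 0.0917 to 0.1% in Het and 0.253 to 0.313% in WT. KO replicate 3 had 2730 counts of Xist, against at most 3 elsewhere, and 2 counts of the Y-linked gene Ddx3y, against 794 to 1220 elsewhere. By these genes it was female and the other libraries male. WT replicate 2 had 1926 counts of the immediate early gene Fos, against 19 to 95 in the other libraries. Cell type markers moved with genotype as well. Summed over 10 markers each, dorsal progenitor markers reached 848 to 887 CPM in KO, 647 to 755 CPM in Het and 455 to 471 CPM in WT, and neuron markers 6991 to 7403 CPM in KO, 6973 to 7566 CPM in Het and 7697 to 8339 CPM in WT. Striatal markers summed to 167 to 179 CPM in KO, 202.3 to 233 CPM in Het and 497 to 564 CPM in WT. No marker on these lists was at 0 in all libraries, and the part of these shifts in the values given here was not tested except where a value is given.

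The stretch of 41 bases shown first is where Gapdh and its processed pseudogene Gm13394 differ, and it is shown because reads of the WT-labelled libraries were counted to that copy. Gm13394 (chromosome 2, 28933610 to 28934609, minus strand, mm10) matched a Gapdh transcript of GENCODE M21 at 999 of 1000 aligned bases. The single difference was A438C, counted from 1 at the 5′ end of the transcript, with the Gapdh base first. It lies in the coding sequence, and capitals mark that base within positions 418 to 458.
Gapdh: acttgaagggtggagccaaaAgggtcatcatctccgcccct
Gm13394: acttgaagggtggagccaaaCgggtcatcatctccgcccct

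Promoter windows are shown for the 4 genes with at least 5 matches to the core of the hypoxia response element, and for Eno2, the gene with the largest change, which had none. The core was searched as ACGTG or GCGTG on both strands in windows from 250 bases before to 50 bases after each RefSeq transcript start (GRCm38.p6), and the palindrome CACGTG counts as 2 overlapping matches. Capitals mark the matches. The windows are Slc16a1 chr3:104638414-104638713 (plus strand, 5 matches), Ldha chr7:46845554-46845853 (plus, 7), Bnip3 chr7:138909457-138909756 (minus, 5), Hk1 chr10:62340372-62340671 (minus, 5) and Eno2 chr6:124769624-124769923 (minus, 0), each written 5′ to 3′ on its own strand. Those of Hk1 and Ldha start inside the gene as GENCODE M21 draws it.
Slc16a1: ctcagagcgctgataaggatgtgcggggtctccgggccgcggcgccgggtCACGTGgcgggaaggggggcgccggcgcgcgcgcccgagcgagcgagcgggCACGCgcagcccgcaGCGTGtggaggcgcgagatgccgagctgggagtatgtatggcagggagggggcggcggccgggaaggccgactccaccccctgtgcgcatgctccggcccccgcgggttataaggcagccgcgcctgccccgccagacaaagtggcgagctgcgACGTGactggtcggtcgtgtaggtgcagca
Ldha: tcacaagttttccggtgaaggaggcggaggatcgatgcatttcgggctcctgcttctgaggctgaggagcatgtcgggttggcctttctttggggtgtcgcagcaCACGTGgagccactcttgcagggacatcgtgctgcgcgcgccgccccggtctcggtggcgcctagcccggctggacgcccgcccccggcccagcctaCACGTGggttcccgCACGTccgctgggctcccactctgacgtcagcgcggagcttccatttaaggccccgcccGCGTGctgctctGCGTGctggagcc
Bnip3: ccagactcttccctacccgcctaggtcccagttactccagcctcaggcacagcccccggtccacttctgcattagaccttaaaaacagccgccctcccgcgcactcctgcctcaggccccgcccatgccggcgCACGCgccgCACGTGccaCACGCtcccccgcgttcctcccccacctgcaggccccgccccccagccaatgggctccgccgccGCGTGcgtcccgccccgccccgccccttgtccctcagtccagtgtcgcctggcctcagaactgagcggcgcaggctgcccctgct
Hk1: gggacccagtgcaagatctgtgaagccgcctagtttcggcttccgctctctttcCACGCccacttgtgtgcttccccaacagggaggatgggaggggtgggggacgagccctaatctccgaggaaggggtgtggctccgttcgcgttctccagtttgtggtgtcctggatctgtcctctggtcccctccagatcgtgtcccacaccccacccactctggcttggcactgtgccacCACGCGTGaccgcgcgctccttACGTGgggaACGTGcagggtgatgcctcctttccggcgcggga
Eno2: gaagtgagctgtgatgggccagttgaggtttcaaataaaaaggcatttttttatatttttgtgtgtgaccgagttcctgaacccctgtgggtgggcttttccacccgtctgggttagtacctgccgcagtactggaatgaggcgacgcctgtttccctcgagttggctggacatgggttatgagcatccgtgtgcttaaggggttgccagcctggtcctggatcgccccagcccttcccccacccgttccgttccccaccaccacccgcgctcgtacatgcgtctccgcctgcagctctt

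A window was given for 32 of the 35 genes. A match stood in at least 1 window of 29 of these 32 genes (90.6%), against 66.5% of the 11504 tested genes with a window. Counted by window, 43 of 53 windows of the group (81.1%) held a match, against 43.8% of all 32851 windows. Eno2, Tpi1 and Gpi1 had none. With a match in 29 of 32 genes, the presence of the core could hardly separate directions. In KO over WT it was found for 9 of 9 higher genes, 8 of 10 lower genes and 12 of 13 genes without a call. The group was chosen to include HIF targets, and the share over all windows also covers genes that were not tested. The group had 53 windows for 32 genes, against 32851 windows for 27025 genes in all, and more windows give more chances of a match. Overlapping windows of the same gene were counted separately. A match is a string of letters and not a bound site.

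In KO over WT, 21 of the 35 genes passed the test, 9 higher and 12 lower, against 52.8% of the 15271 genes tested (26.5% higher and 26.3% lower). A call means an adjusted p under 0.05 in edgeR's quasi-likelihood test, which also gave every other adjusted p here unless another tool is named. The median log2 fold change of the group was -0.03, against 0.01 over all genes, and 3 of the 35 were both called and changed at least 1.5-fold, against 22.4% of all genes. In Het over WT, 20 of 35 were called, 8 higher and 12 lower, against 45.9% of all genes (22.5% higher and 23.4% lower). The group's median was -0.04, against 0.01 over all genes, and 5 genes reached 1.5-fold, against 16.5% of all genes. In KO over Het, 8 of 35 were called, 5 higher and 3 lower, against 16.7% of all genes (8.3% higher and 8.44% lower), with a median of 0.04 and 1 gene at 1.5-fold, against 4.81%. The count of 8 fell to 3 without KO replicate 1 and to 4 without KO replicate 2. With reads of near-identical copies added to each gene, as described for Eno1 and Gapdh, 7 genes were higher and 13 lower in KO over WT, and 6 were higher and 13 lower in Het over WT. The shares called in the group, 60%, 57.1% and 22.9%, lay somewhat above the background, its shares past 1.5-fold below it, and genes of the same pathway were called in opposite directions.

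Between the comparisons, 23 genes were called at least once and 12 in none. KO over WT and Het over WT share their WT libraries, so their calls are not independent. Of the 18 genes called in both, 17 had the same direction and Ndrg1 had opposite directions. Pfkl, Pkm and Mxi1 were called in KO over WT but not in Het over WT, and Pgam1 and Pfkfb3 in Het over WT but not in KO over WT. Slc2a3, Slc16a1, Egln3, Vegfa and Ndrg1 were called in all 3. Matching shares over all genes are not given for these counts, so whether they set the group apart was not tested.

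**Figure D1:**
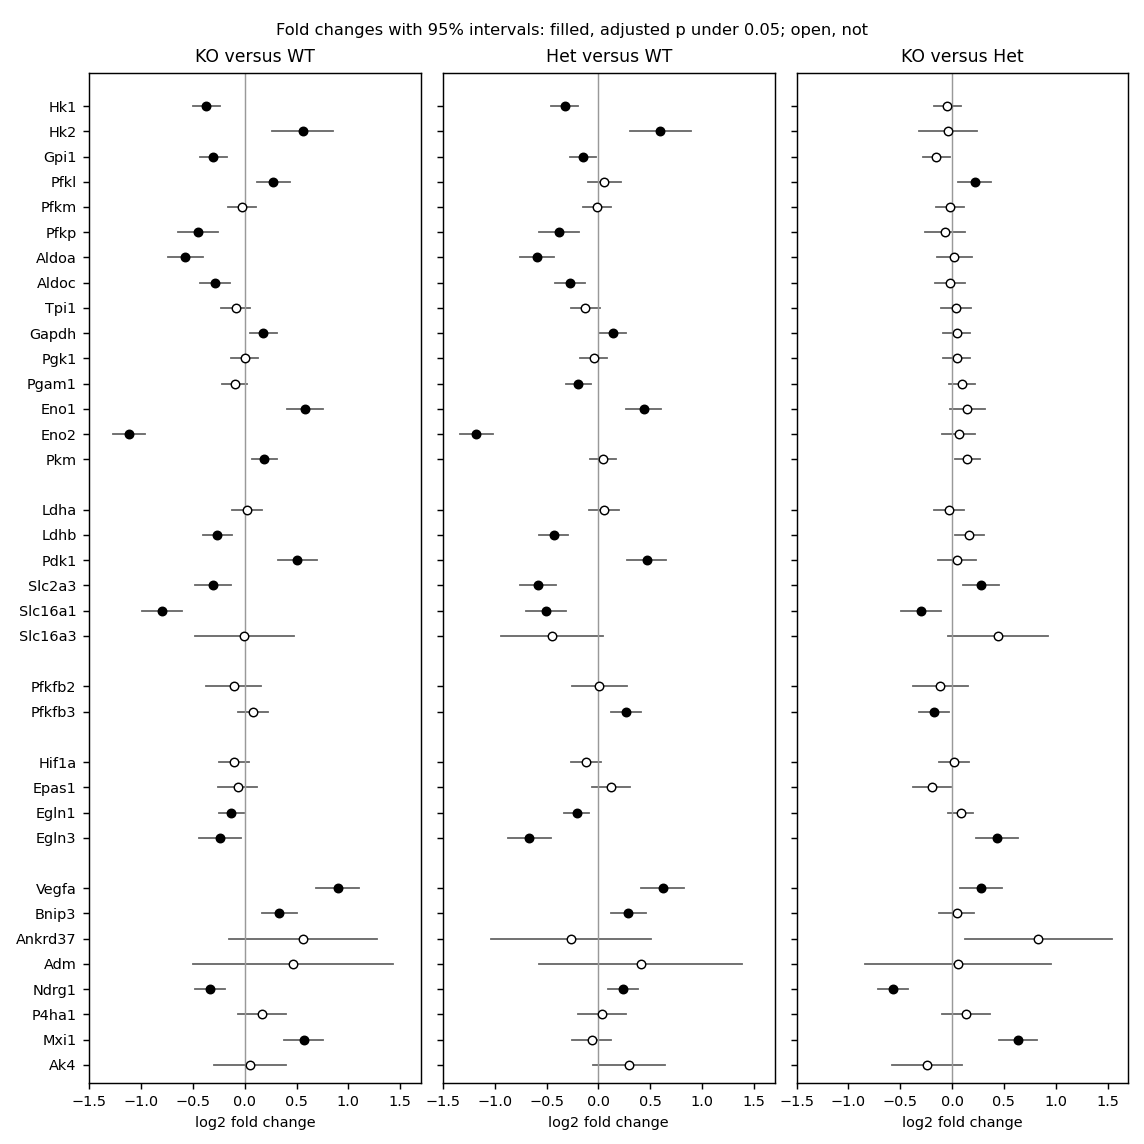
Log2 fold change of each gene (horizontal axis) in KO over WT, Het over WT and KO over Het, one panel each, with 95% confidence intervals as lines, genes grouped by role down the page, and filled points for an adjusted p under 0.05. Eno2 lies at -1.11 and -1.18 in the first 2 panels and at 0.06 in the third, while Mxi1 lies at 0.57, -0.07 and 0.63.

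Of the 15 enzymes of the glycolytic chain, 5 rose and 6 fell in KO over WT, 3 rose and 7 fell in Het over WT, and 1 rose in KO over Het. The shares called were 73.3%, 66.7% and 6.67% of the 15, against 52.8%, 45.9% and 16.7% of all genes. The counts against WT depend on near-identical copies of Gapdh and Eno1, described with those genes: with the copies' counts added, 3 rose and 7 fell in KO over WT, and 1 rose and 8 fell in Het over WT. Summed over the 15 enzymes, levels in FPKM (the authors' values, scaled to gene length and library size) were 4214 ± 112 in KO, 4099 ± 40 in Het and 4052 ± 180 in WT (SD, n = 3 each) as deposited. With the copies' counts added at each gene's own length, an alternative chosen after seeing the data, the sum was 4265 ± 114 FPKM in KO, 4162 ± 34 FPKM in Het and 4781 ± 192 FPKM in WT (SD, n = 3 each). The deposited sums overlap between genotypes, and with the copies every WT-labelled library lay above every other library. Per gene length, Gapdh was the highest of the 35 at a mean of 1610 FPKM over all 9 libraries, followed by Ldha at 440 FPKM, Eno1 at 390 FPKM, Pkm at 373 FPKM and Hk1 at 317 FPKM. Adm was the lowest at 0.749 FPKM. The places of Eno1 and Gapdh rest on their own counts without the copies, and with copies Eno1 had 503 ± 6.18 FPKM in KO, 475 ± 32 FPKM in Het and 465 ± 29.9 FPKM in WT (SD, n = 3 each).

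Eno2, the neuronal enolase (chromosome 6, 124760053 to 124769673, minus strand, mm10), showed the largest change of the group. Eno2 had 75.1, 74.2 and 65.4 CPM in KO, 66.04, 73.8 and 65.5 CPM in Het and 156, 147 and 161 CPM in WT. Every KO-labelled and Het-labelled library lay below every WT-labelled library, and KO and Het overlapped. Eno2 fell 2.17-fold in KO over WT (log2 fold change -1.11, SE 0.06, adjusted p = 4.8e-10) and 2.26-fold in Het over WT (log2 fold change -1.18, SE 0.06, adjusted p = 4.5e-10), while KO over Het gave log2 fold change 0.06, SE 0.06, adjusted p = 0.57. Its share of the summed FPKM of Eno1 and Eno2 was 11.9 ± 0.633% in KO, 12.6 ± 1.97% in Het and 30.4 ± 0.546% in WT (SD, n = 3 each). Over the same libraries, 6 of 10 neuron markers in KO over WT and 7 of 10 in Het over WT were lower and none higher. Of all genes, 26.3% and 23.4% were called lower in these comparisons, and 52.8% and 45.9% in either direction. The neuron list had median log2 fold changes of -0.34 in each. Eno2 is not on that list, and the part of the marker shift in its fall was not tested.

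Eno1, the enolase of most other cells (chromosome 4), was counted higher. Eno1 had 431, 425 and 417 CPM in KO, 388, 340 and 424 CPM in Het and 278, 272 and 301 CPM in WT. The KO-labelled and Het-labelled libraries lay above all WT-labelled ones, with log2 fold change 0.58, SE 0.07, adjusted p = 2.6e-06 in KO over WT and log2 fold change 0.44, SE 0.07, adjusted p = 8.0e-05 in Het over WT. This rise depended on where reads of its copies were counted. The processed pseudogene Gm4735 (chromosome 2, 80837141 to 80838442) matched an Eno1 transcript at 1297 of 1302 aligned bases, and it had 343, 271 and 438 counts in KO, 248, 670 and 261 in Het and 2435, 2349 and 2733 in WT. The other copy, Eno1b, had 979, 805 and 876 counts in KO, 647, 1711 and 1021 in Het and 1010, 996 and 1325 in WT. Both copies together held 9.65 to 10.7% of Eno1's own counts in KO, 9.45 to 23.7% in Het and 54.8 to 58.1% in WT. With their counts added, Eno1 had 468 ± 8.78 CPM in KO, 438 ± 26.3 CPM in Het and 443 ± 28.4 CPM in WT (SD, n = 3 each). The log2 fold change was then 0.08 in KO over WT (adjusted p = 0.28) and -0.018 in Het over WT (adjusted p = 0.82), so Eno1 was not called once the copies were included, and the Eno2 share was then 10.9 ± 0.605% in KO, 11.1 ± 1.13% in Het and 21.9 ± 0.532% in WT (SD, n = 3 each).

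Gapdh, the enzyme of the NADH-forming step and a common reference gene (chromosome 6, 125161715 to 125166467, minus strand), went further and turned sign. Gapdh had 1336, 1229 and 1252 CPM in KO, 1255, 1237 and 1207 CPM in Het and 1078, 1079 and 1209 CPM in WT. As deposited, its log2 fold change was 0.18 in KO over WT (SE 0.05, adjusted p = 0.0090), without overlap of the groups, and 0.14 in Het over WT (SE 0.05, adjusted p = 0.047), with overlap. The first call was lost without KO replicate 1 (adjusted p = 0.055) or WT replicate 2 (0.053), and the other without KO replicate 2 (0.058), Het replicate 1 (0.085), Het replicate 2 (0.055), WT replicate 1 (0.15) or WT replicate 2 (0.18), and with the replicate number as a block (0.076). Gm13394, whose sequence differs from Gapdh at the base shown above, had 5, 5 and 8 counts in KO, 5, 7 and 24 in Het and 9388, 9717 and 9947 in WT. Over the 40 copies of Gapdh, the summed counts were 0.201 to 0.229% of Gapdh's in KO, 0.178 to 0.275% in Het and 35.5 to 40.3% in WT. With the copies added, Gapdh had 1275 ± 56.4 CPM in KO, 1236 ± 23.7 CPM in Het and 1552 ± 75.5 CPM in WT (SD, n = 3 each). The log2 fold change was then -0.28 in KO over WT (adjusted p = 1.4e-04) and -0.33 in Het over WT (adjusted p = 4.9e-05). Gapdh in these counts is thus a gene without a settled direction between KO or Het and WT, while KO over Het stayed at 0.05 in both forms.

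**Figure D2:**
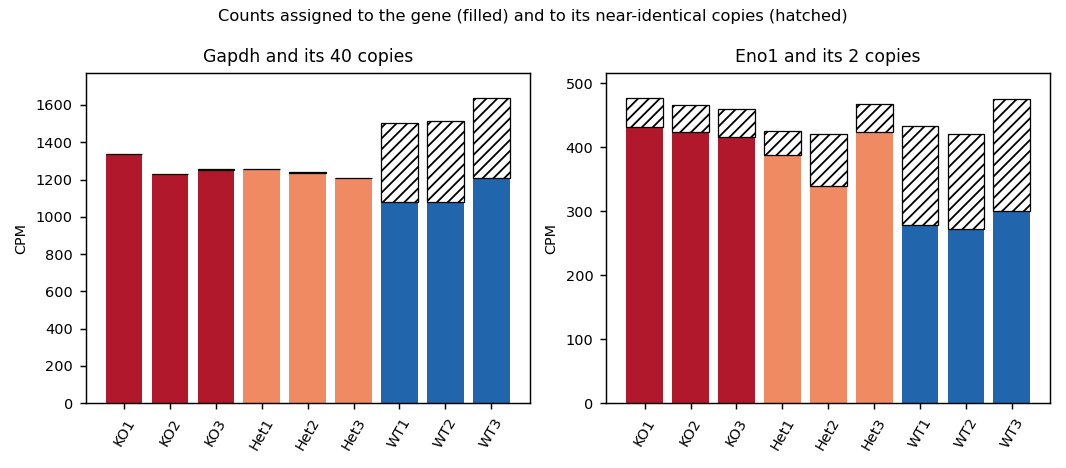
CPM (vertical axis) of Gapdh and Eno1 in each KO, Het and WT library as filled bars, with the CPM of their near-identical copies stacked on top as hatched bars. The copies of Gapdh reach 426 to 435 CPM in WT and 2.2 to 3.32 CPM elsewhere, and adding them lifts WT above KO and Het.

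Among the other genes with such copies (genes of which at least 50% of the 31-base words also occur in the transcripts of 1 of the 35), Ldhb had a copy with reads in WT alone (47, 51 and 57 counts, against 0 in every KO and Het library), and its calls were the same with those counts added. The copies of the remaining genes held at most 0.51% of the gene's own counts in any library.

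Phosphorylation of glucose, the entry step, was divided between a lower Hk1 and a higher Hk2. Hk1 encodes the main brain hexokinase, which sits on the mitochondrial outer membrane. Hk1 had 384, 375 and 356 CPM in KO, 367, 396 and 388 CPM in Het and 467, 484 and 492 CPM in WT. It fell in KO over WT (log2 fold change -0.37, SE 0.05, adjusted p = 1.9e-05) and in Het over WT (log2 fold change -0.33, SE 0.05, adjusted p = 1.0e-04), without overlap. Hk2, the hexokinase of muscle, dividing cells and tumours and a HIF target, had a mean of 3.31 FPKM over all libraries, against 317 FPKM for Hk1. Hk2 had 8.61, 9.03 and 8.17 CPM in KO, 7.99, 8.86 and 9.61 CPM in Het and 5.60, 5.92 and 5.98 CPM in WT. All 6 KO-labelled and Het-labelled libraries exceeded the WT-labelled ones, and Hk2 rose in KO over WT (log2 fold change 0.56, SE 0.12, adjusted p = 8.9e-04) and Het over WT (log2 fold change 0.60, SE 0.12, adjusted p = 6.9e-04). Hk2 made up 1.26 ± 0.0466% of the summed hexokinase FPKM in KO, 1.25 ± 0.0855% in Het and 0.665 ± 0.00733% in WT (SD, n = 3 each). Gpi1, glucose-6-phosphate isomerase, fell in KO over WT (log2 fold change -0.30, SE 0.05, adjusted p = 1.3e-04). In Het over WT Gpi1 had log2 fold change -0.15, SE 0.05, adjusted p = 0.028, a call lost without Het replicate 1 (adjusted p = 0.13), Het replicate 2 (0.14), WT replicate 1 (0.084) or WT replicate 3 (0.067), with only these genotypes fitted (0.064), with upper-quartile factors (0.098), with no filter (0.083) and with limma (0.13).

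The 3 subunits of phosphofructokinase, which sets the pace of glycolysis, gave 3 different results. Pfkl had 138, 135 and 133 CPM in KO, 102, 119 and 128 CPM in Het and 110, 116 and 109 CPM in WT. Pfkl, the liver-type subunit, rose in KO over WT (log2 fold change 0.28, SE 0.07, adjusted p = 0.0021) and was not called in Het over WT (log2 fold change 0.06, SE 0.07, adjusted p = 0.50). The KO over Het difference (log2 fold change 0.22, SE 0.07, adjusted p = 0.031) was lost without KO replicate 1 (adjusted p = 0.12), KO replicate 2 (0.093), KO replicate 3 (0.068), Het replicate 1 (0.15, at a log2 fold change of 0.12) or Het replicate 2 (0.087), with only these genotypes fitted (0.063) and with limma (0.069). Without Het replicate 1, which was the lowest library, Pfkl was called higher in Het over WT (0.16, adjusted p = 0.034). Pfkm had 183, 186 and 168 CPM in KO, 172, 190 and 182 CPM in Het and 183, 183 and 182 CPM in WT. Pfkm, the muscle-type subunit, was not called in any comparison, with a 95% interval of -0.16 to 0.11 for KO over WT. Pfkp had 26.1, 27.95 and 26.8 CPM in KO, 28.6, 27.8 and 28.4 CPM in Het and 40.01, 37.3 and 33.01 CPM in WT. Pfkp, the platelet-type subunit, fell in KO over WT (log2 fold change -0.45, SE 0.08, adjusted p = 1.2e-04) and in Het over WT (log2 fold change -0.38, SE 0.08, adjusted p = 7.3e-04). By share of the family's FPKM, Pfkl took 55.9 ± 0.918% in KO, 51.5 ± 2.25% in Het and 48.9 ± 0.92% in WT, while Pfkp took 8.99 ± 0.376% in KO, 10.2 ± 0.862% in Het and 13 ± 1.06% in WT (SD, n = 3 each). Among the makers of fructose 2,6-bisphosphate, which stimulates phosphofructokinase, Pfkfb2 was called nowhere and ranged over 12 to 15.9 CPM. Pfkfb3 had 79.6, 85.3 and 87.5 CPM in KO, 91.9, 96.97 and 96.8 CPM in Het and 82.01, 73.00 and 83.2 CPM in WT. Pfkfb3 rose in Het over WT (log2 fold change 0.26, SE 0.06, adjusted p = 0.0018) and was not called in KO over WT (log2 fold change 0.08, SE 0.06, adjusted p = 0.25). The KO over Het call of Pfkfb3 (-0.18, adjusted p = 0.047) was lost without KO replicate 1 (0.22), KO replicate 2 (0.11), Het replicate 2 (0.11), Het replicate 3 (0.096) or WT replicate 3 (0.0503), with the replicate block (0.065) and with limma (0.076).

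Both aldolases fell in both comparisons with WT. Aldoa had 260, 252 and 233 CPM in KO, 231, 263 and 240 CPM in Het and 366, 340 and 400 CPM in WT. Aldoa, the muscle-type aldolase and the more abundant of the pair per length, fell in KO over WT (log2 fold change -0.57, SE 0.07, adjusted p = 2.6e-06) and in Het over WT (log2 fold change -0.59, SE 0.07, adjusted p = 2.8e-06), and KO and Het overlapped. Aldoc had 161, 142 and 151 CPM in KO, 155, 147 and 156 CPM in Het and 173, 196 and 185 CPM in WT. Aldoc, the brain-type aldolase that is enriched in astrocytes, fell in KO over WT (log2 fold change -0.29, SE 0.06, adjusted p = 5.9e-04) and Het over WT (log2 fold change -0.27, SE 0.06, adjusted p = 0.0013). Astrocyte markers summed to 477 to 549 CPM in KO, 535 to 579 CPM in Het and 1089 to 1154 CPM in WT. Of these markers, 8 of 10 were lower in KO over WT and 9 of 10 in Het over WT, against 26.3% and 23.4% of all genes, and none was higher. Aldoc is not on that list, and the part of the marker shift in its fall was not tested. Of Aldoa's 31-base words, 17% also occur in transcripts of other genes, so its counts may be shared with them.

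Of the other enzymes of the lower chain, Pgam1 and Pkm were called in 1 comparison each. Tpi1, triose phosphate isomerase, and Pgk1, phosphoglycerate kinase, were not called in any comparison: Tpi1 ranged over 206 to 249 CPM and Pgk1 over 209 to 236 CPM, and their 95% intervals for KO over WT were -0.23 to 0.05 and -0.13 to 0.13. Pgam1, phosphoglycerate mutase, ranged over 324 to 342 CPM in KO, 306 to 320 CPM in Het and 348 to 364 CPM in WT. It fell in Het over WT (log2 fold change -0.19, SE 0.05, adjusted p = 0.0048) and was not called in KO over WT (log2 fold change -0.10, SE 0.05, adjusted p = 0.12). Pkm had 1008, 988 and 940 CPM in KO, 897, 867 and 891 CPM in Het and 828, 845 and 900 CPM in WT. Pkm, the pyruvate kinase whose splice forms differ between neurons and dividing cells, rose in KO over WT (log2 fold change 0.19, SE 0.05, adjusted p = 0.0039) and had log2 fold change 0.05, SE 0.05, adjusted p = 0.48 in Het over WT. Gene counts do not separate the Pkm splice forms. Of the 31-base words of Pgk1, Pgam1 and Pkm, 54.7%, 37.1% and 34.7% occur in other genes' transcripts, so small differences in them are uncertain.

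**Figure D3:**
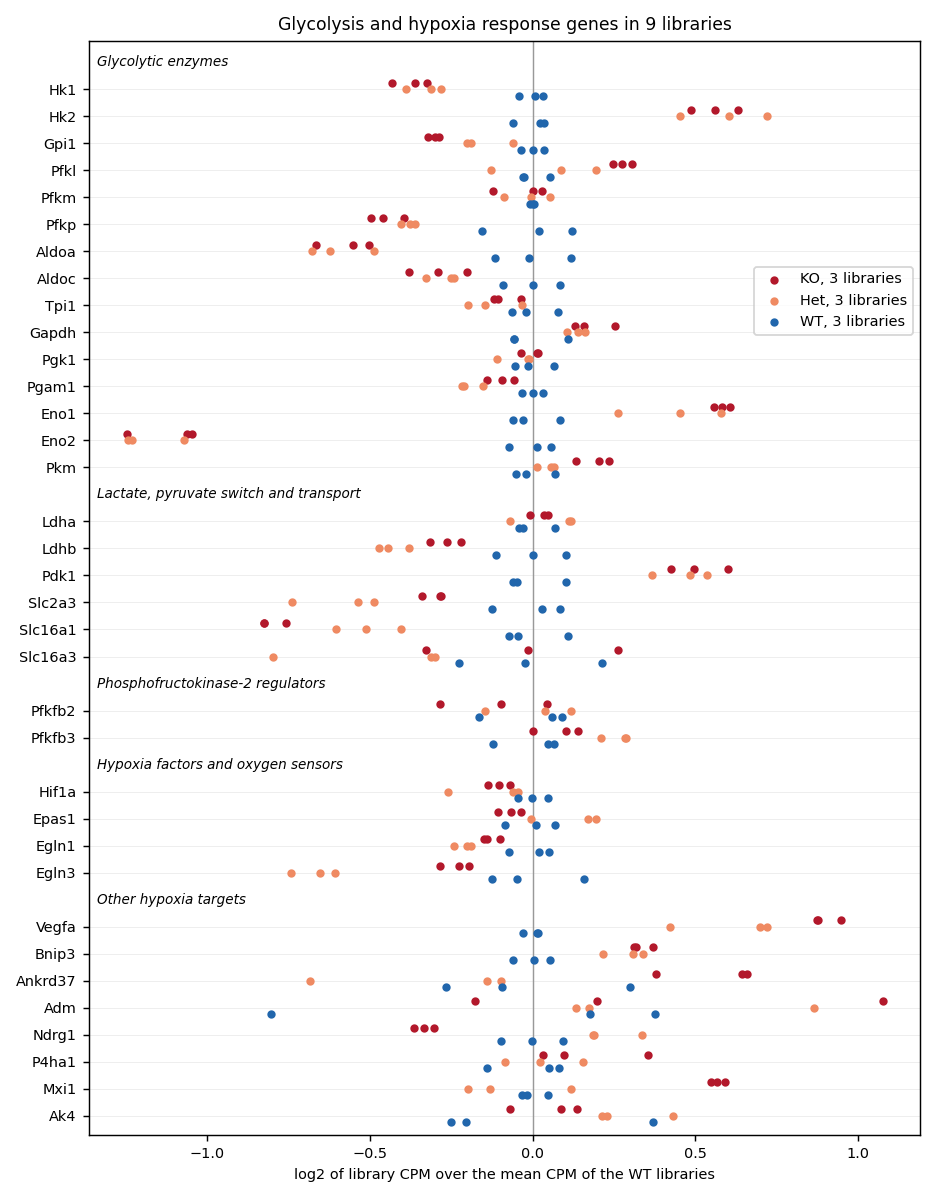
Log2 of each library's CPM over the gene's mean CPM in the WT libraries (horizontal axis), one point per library coloured by KO, Het and WT, with genes grouped by role down the page. Eno2 and Slc16a1 sit to the left of 0 in all 6 KO and Het libraries and Vegfa to the right, while Pgk1, Pfkm and Ldha scatter around 0.

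Of the 6 genes of lactate and pyruvate handling and transport, 1 rose and 3 fell in each comparison with WT, where 52.8% of all genes were called in KO over WT and 45.9% in Het over WT. Ldha had 413, 401 and 416 CPM in KO, 384, 437 and 436 CPM in Het and 391, 395 and 423 CPM in WT. Ldha, the lactate dehydrogenase subunit that favours lactate formation and a textbook HIF target with 7 motif matches in the window shown above, was not called in any comparison. Its log2 fold change in KO over WT was 0.02 with a 95% interval of -0.12 to 0.17. Ldhb had 150, 145 and 140 CPM in KO, 128, 134 and 126 CPM in Het and 161, 175 and 187 CPM in WT. Ldhb, the subunit that favours pyruvate formation, fell in KO over WT (log2 fold change -0.27, SE 0.06, adjusted p = 9.2e-04) and in Het over WT (log2 fold change -0.43, SE 0.06, adjusted p = 1.4e-05), without overlap. Ldha thus made up 74.3 ± 0.811% of the summed FPKM of both subunits in KO, 76.7 ± 1.33% in Het and 70.3 ± 0.84% in WT (SD, n = 3 each). Of the 31-base words of Ldha and Ldhb, 19.6% and 33% occur in other genes' transcripts, so these values are uncertain. Pdk1 had 44.4, 42.3 and 47.7 CPM in KO, 40.6, 44.02 and 45.7 CPM in Het and 33.9, 30.5 and 30.2 CPM in WT. Pdk1, a kinase that inhibits pyruvate dehydrogenase and a HIF target, rose in KO over WT (log2 fold change 0.51, SE 0.08, adjusted p = 3.0e-05) and in Het over WT (log2 fold change 0.46, SE 0.08, adjusted p = 1.1e-04), and no KO or Het library reached down to the WT range.

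Slc16a1, the monocarboxylate transporter MCT1 of endothelium, glia and progenitors (chromosome 3, 104638668 to 104658462, plus strand), was graded over the 3 genotypes. Slc16a1 had 19.6, 19.7 and 20.6 CPM in KO, 26.3, 24.4 and 22.9 CPM in Het and 37.5, 33.7 and 33.1 CPM in WT. No library of one genotype reached the range of another. Slc16a1 fell 1.74-fold in KO over WT (log2 fold change -0.80, SE 0.08, adjusted p = 2.7e-07) and 1.42-fold in Het over WT (log2 fold change -0.51, SE 0.08, adjusted p = 6.0e-05), and was lower in KO over Het (log2 fold change -0.30, SE 0.08, adjusted p = 0.016). That last call was lost without KO replicate 1 (adjusted p = 0.065) or KO replicate 2 (0.066) and with limma (0.063). Slc16a3, the lactate exporter MCT4 of glycolytic cells, ranged over 2.78 to 4.18 CPM in KO, 2.01 to 2.84 CPM in Het and 2.98 to 4.05 CPM in WT and was not called in any comparison. Slc2a3 had 69.3, 69.2 and 66.5 CPM in KO, 58.1, 60.2 and 50.5 CPM in Het and 89.4, 77.3 and 86.1 CPM in WT. Slc2a3, the neuronal glucose transporter GLUT3, fell in both comparisons with WT, in Het over WT (log2 fold change -0.58, SE 0.07, adjusted p = 5.4e-06) and in KO over WT (log2 fold change -0.30, SE 0.07, adjusted p = 0.0017). Slc2a3 was higher in KO over Het (log2 fold change 0.28, SE 0.07, adjusted p = 0.012), a call lost without KO replicate 1 (adjusted p = 0.052).

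**Figure D4:**
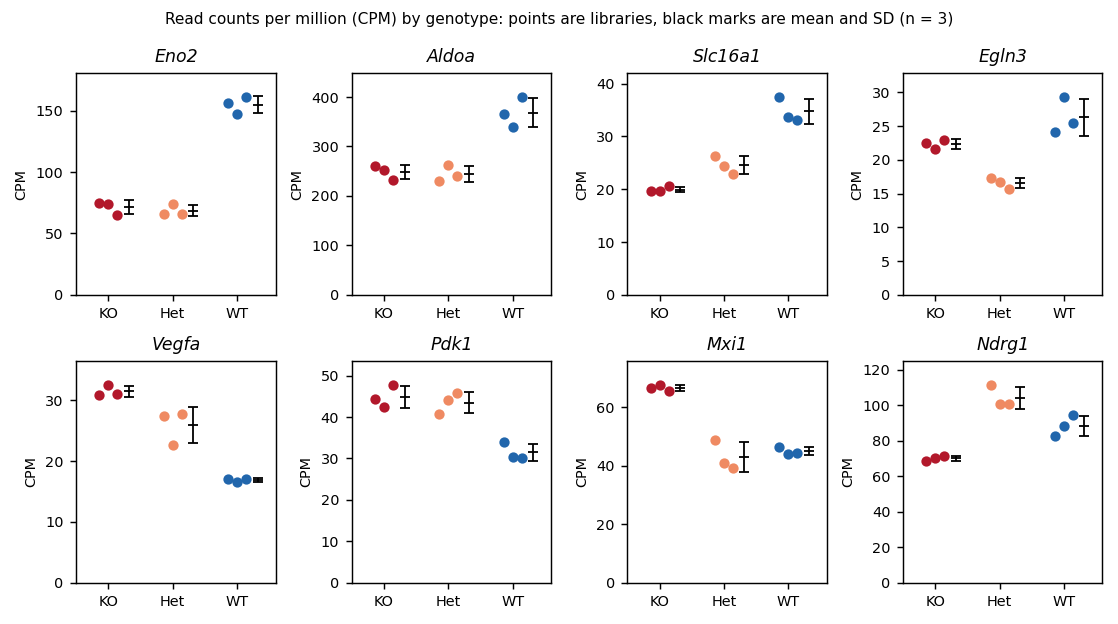
CPM by library for 8 genes in KO, Het and WT, with points for libraries and black marks for mean and SD (n = 3); each vertical axis starts at 0. Eno2 and Aldoa show KO and Het together below WT, Slc16a1 and Vegfa a graded order, and Mxi1 a rise in KO alone to 65.7 to 67.7 CPM.

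Neither hypoxia factor was called in the comparisons, and both hydroxylases fell. Hif1a had 84.4, 86.5 and 88.6 CPM in KO, 89.2, 89.97 and 77.6 CPM in Het and 90.00, 92.7 and 95.9 CPM in WT. Hif1a RNA was not called in any comparison, with log2 fold change -0.10, SE 0.06, adjusted p = 0.16 in KO over WT and log2 fold change -0.12, SE 0.06, adjusted p = 0.11 in Het over WT. Epas1 had 29.2, 30.7 and 29.98 CPM in KO, 35.4, 31.3 and 35.97 CPM in Het and 31.7, 32.9 and 29.7 CPM in WT. Epas1 was likewise not called, apart from KO over Het without Het replicate 2 (-0.26, adjusted p = 0.04). HIF activity is controlled mainly through protein stability, which RNA counts do not measure. Egln3 had 22.5, 21.6 and 22.9 CPM in KO, 17.3, 16.7 and 15.7 CPM in Het and 24.1, 29.3 and 25.4 CPM in WT. Egln3, the prolyl hydroxylase PHD3 and itself a HIF target, fell in Het over WT (log2 fold change -0.67, SE 0.08, adjusted p = 8.2e-06) and stood between in KO, higher in KO over Het by 0.43 on the log2 scale (SE 0.08, adjusted p = 0.0019). The KO over WT call of Egln3 (log2 fold change -0.23, SE 0.08, adjusted p = 0.025) was lost without KO replicate 1 (adjusted p = 0.062), KO replicate 2 (0.095) or WT replicate 2 (0.18, at -0.15) and with limma (0.086). Egln1, the main oxygen sensor PHD2, ranged over 114 to 118 CPM in KO, 107 to 111 CPM in Het and 120 to 130 CPM in WT, and fell in Het over WT (log2 fold change -0.21, SE 0.05, adjusted p = 0.0020). Its KO over WT call (log2 fold change -0.13, SE 0.05, adjusted p = 0.033) was lost without any one of KO replicates 1 (adjusted p = 0.051), 2 (0.12) and 3 (0.077) and WT replicates 2 (0.1) and 3 (0.12), with upper-quartile factors (0.067), no filter (0.13), limma (0.11) and the replicate block (0.061).

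Among the 8 other hypoxia targets, Vegfa was graded, Mxi1 was high in KO alone and Ndrg1 was low in KO and high in Het. Vegfa had 30.9, 32.5 and 30.98 CPM in KO, 27.4, 22.6 and 27.8 CPM in Het and 17.03, 16.5 and 17.1 CPM in WT. Vegfa, which drives vessel growth into the cortex, rose 1.86-fold in KO over WT (log2 fold change 0.90, SE 0.08, adjusted p = 1.8e-07) and 1.54-fold in Het over WT (log2 fold change 0.62, SE 0.09, adjusted p = 1.9e-05), without overlap. Vegfa was also higher in KO over Het (log2 fold change 0.28, SE 0.08, adjusted p = 0.026), a call lost without KO replicate 1 (adjusted p = 0.069), KO replicate 2 (0.11), KO replicate 3 (0.054) or Het replicate 2 (0.15, at 0.18), with only these genotypes fitted (0.052) and with limma (0.052). Markers of endothelial cells and pericytes summed to 386 to 400 CPM in KO, 392 to 418 CPM in Het and 309 to 321 CPM in WT. Of these 16, 5 were higher and 3 lower in KO over WT, and 9 higher and 1 lower in Het over WT. Of all genes, 26.5% were higher and 26.3% lower in KO over WT, and 22.5% and 23.4% in Het over WT. The pericyte marker Rgs5 made up much of the difference between the sums, with means of 108 CPM in KO, 98.9 CPM in Het and 43.1 CPM in WT. Without Rgs5 the sums were 283 to 292 CPM in KO, 297 to 312 CPM in Het and 270.5 to 275 CPM in WT, and the median log2 fold change over the 16 markers was 0.01 in KO over WT. The part of that marker shift in the Vegfa and Slc16a1 values was not tested.

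Mxi1 had 66.7, 67.7 and 65.7 CPM in KO, 48.8, 41.1 and 39.2 CPM in Het and 46.5, 44.01 and 44.5 CPM in WT. Mxi1, a MYC antagonist induced by HIF, rose in KO over WT (log2 fold change 0.57, SE 0.08, adjusted p = 8.3e-06) and over Het (log2 fold change 0.63, SE 0.08, adjusted p = 1.8e-05), while Het over WT gave log2 fold change -0.07, SE 0.08, adjusted p = 0.51. No KO-labelled library overlapped the others. Ndrg1 had 68.6, 70.1 and 71.6 CPM in KO, 111, 101 and 101 CPM in Het and 82.6, 88.1 and 94.2 CPM in WT. Ndrg1, a hypoxia and differentiation response gene also high in oligodendrocytes, fell in KO over WT (log2 fold change -0.33, SE 0.06, adjusted p = 1.8e-04) but rose in Het over WT (log2 fold change 0.24, SE 0.06, adjusted p = 0.0035), and KO over Het had log2 fold change -0.57, SE 0.06, adjusted p = 4.0e-06. Its groups did not overlap in any comparison. Oligodendrocyte lineage markers summed to 211 to 247 CPM in KO, 217 to 224 CPM in Het and 432 to 464 CPM in WT. Of these markers, 10 of 10 fell in each comparison with WT, against 26.3% of all genes in KO over WT and 23.4% in Het over WT. Ndrg1 is not on that list, and the part of the marker shift in its values was not tested.

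Bnip3, a mitophagy receptor and HIF target with 5 motif matches in its window, ranged over 35.8 to 37.3 CPM in KO, 33.5 to 36.5 CPM in Het and 27.7 to 29.9 CPM in WT. Bnip3 rose in KO over WT (log2 fold change 0.33, SE 0.07, adjusted p = 6.3e-04) and in Het over WT (log2 fold change 0.29, SE 0.07, adjusted p = 0.0026), and 57% of its 31-base words occur in other genes' transcripts. P4ha1, a collagen prolyl hydroxylase subunit, Ak4, a mitochondrial adenylate kinase, Adm, the vasodilator adrenomedullin, and Ankrd37 were not called in any comparison. Ankrd37 had 0.941 to 1.14 CPM in KO, 0.451 to 0.677 CPM in Het and 0.602 to 0.891 CPM in WT, the widest uncalled difference at 0.83 in KO over Het (SE 0.29, adjusted p = 0.060). With limma on log2(FPKM + 1) Ankrd37 was called in KO over Het (adjusted p = 0.016) and in KO over WT (0.017). Ak4 was called higher in Het over WT without WT replicate 1 (0.52, adjusted p = 0.0018) and with no filter (0.31, adjusted p = 0.017).

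Of 36 further glycolysis and pyruvate genes, 30 were tested, and 5 rose and 10 fell in KO over WT, 5 rose and 9 fell in Het over WT, and 7 rose and 2 fell in KO over Het. The shares called were 50%, 46.7% and 30% of the 30, against 52.8%, 45.9% and 16.7% of all genes, so the counts against WT were at the background. Their median log2 fold change in KO over WT was -0.08. The largest rise was that of Slc2a1, the glucose transporter GLUT1 of the blood-brain barrier and of glia. Slc2a1 had 98.00, 95.4 and 91.7 CPM in KO, 71.7, 55.8 and 54.5 CPM in Het and 40.3, 43.8 and 40.7 CPM in WT. Slc2a1 was graded and without overlap, with log2 fold change 1.19, SE 0.09, adjusted p = 4.2e-08 in KO over WT, log2 fold change 0.54, SE 0.09, adjusted p = 1.7e-04 in Het over WT and log2 fold change 0.65, SE 0.09, adjusted p = 1.1e-04 in KO over Het, and it overlaps Gm12868 on the other strand. GLUT1 and the neuronal GLUT3 (Slc2a3) thus went in opposite directions against WT. Pgm2, a phosphoglucomutase, rose by 0.85 on the log2 scale in KO over WT (SE 0.12, adjusted p = 1.5e-05), and Pck2, the mitochondrial phosphoenolpyruvate carboxykinase, by 0.65 (SE 0.13, adjusted p = 4.6e-04). Gpd1, a glycerol phosphate dehydrogenase, fell by 0.99 (SE 0.20, adjusted p = 8.2e-04) and Slc16a7, the neuronal lactate transporter MCT2, by 0.87 (SE 0.10, adjusted p = 2.1e-06). Hk3, a hexokinase of myeloid cells, fell by 1.24 (SE 0.37, adjusted p = 0.0098), with 0.232 to 0.732 CPM in KO, 0.541 to 0.697 CPM in Het and 0.891 to 1.4 CPM in WT. Microglia and macrophage markers summed to 78.9 to 84.6 CPM in KO, 73.4 to 75.4 CPM in Het and 123 to 140 CPM in WT. Of these markers, 7 of 10 were lower in KO over WT and 8 of 10 in Het over WT, against 26.3% and 23.4% of all genes. None of these markers was higher, and their part in the Hk3 value was not tested.

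Of 43 further hypoxia response genes, 41 were tested. In KO over WT 20 rose and 8 fell, in Het over WT 15 rose and 9 fell, and in KO over Het 9 rose and 3 fell. The shares called were 68.3%, 58.5% and 29.3% of the 41, against 52.8%, 45.9% and 16.7% of all genes. The median log2 fold change in KO over WT was 0.28, against 0.01 over all genes, and 17 of the 41 were called at 1.5-fold or more, against 22.4% of all genes. Car12, a carbonic anhydrase, rose by 2.18 (SE 0.20, adjusted p = 1.1e-07), Stc2, a stanniocalcin, by 1.25 (SE 0.16, adjusted p = 4.6e-06) and Igfbp3, an insulin-like growth factor binding protein, by 1.24 (SE 0.07, adjusted p = 1.9e-10) in KO over WT. Angptl4, a lipoprotein lipase inhibitor, fell by 1.20 (SE 0.16, adjusted p = 9.1e-06), Ppfia4, a liprin, by 0.99 (SE 0.09, adjusted p = 7.1e-08) and Loxl2, a lysyl oxidase-like enzyme, by 0.77 (SE 0.20, adjusted p = 0.0037). Of the 31-base words of Loxl2 and Gpd1, 46.4% and 11% occur in other genes' transcripts, so both are uncertain. The erythropoietin gene Epo was at 0 in all 9 libraries. The 41 genes thus leaned towards rises in KO over WT, 20 against 8 falls, where the background was 26.5% higher and 26.3% lower. The list was chosen with earlier results of these data known, so the lean is a description and no independent support. The part of the cell type marker shifts in it was not tested. In Het over WT the list had 15 rises against 9 falls, at a background of 22.5% higher and 23.4% lower. Single genes of the list still went both ways in the same libraries, as among the 35 genes. Whether HIF activity differed between genotypes was not tested.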

How the data were processed

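RNA of 9 newborn dorsal telencephalon libraries (3 KO, 3 Het, 3 WT) was analysed from the authors' deposited raw counts per gene and their deposited FPKM values. FPKM values were the counts scaled by library total and 1 length per gene, so they are no separate measurement. The submitters' processing notes list DESeq 1.10.1, HTSeq 0.6.1, TopHat2 2.0.9 and Bowtie2 2.0.6 with the build mm10, and give no role. Strand use and the handling of reads that match several genes are not given in the sources used here. Of 41128 genes, 40254 were matched to GENCODE M21.

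Counts were fitted with edgeR 4.0.16 (TMM factors, filterByExpr with minimum count 10 and minimum total 15, robust quasi-likelihood fit of all 9 libraries, 6 residual degrees of freedom, Benjamini-Hochberg adjustment over 15271 genes at 0.05) in R 4.3.3. The SE is the log2 fold change divided by the square root of F, in size. The 95% interval uses the t distribution with 6 degrees of freedom. These are not the degrees of freedom of the test, so an interval and its p-value can differ. CPM values use TMM-scaled library sizes. The procedure was run on simulated counts in which far fewer genes changed than were called here against WT, and in KO alone. That run does not check scaling or error rates where so many genes are called.

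The 35 genes, the further lists and the tests were chosen with earlier results of these data known. Values in every library are given for genes called with a log2 fold change of at least 0.4 and for the hypoxia factors and the isozymes. Of each further list the 3 called genes with the largest fold each way in KO over WT are named. Values of Gapdh, Pfkfb3 and the copies of Gapdh and Eno1 in every library were added after they were seen. Genes with at least 10% of 31-base words in other transcripts are uncertain, 14 of the 35 in all, and 13 overlap a gene on the opposite strand. The 14 are Gpi1, Aldoa, Tpi1, Gapdh, Pgk1, Pgam1, Eno1, Pkm, Ldha, Ldhb, Pfkfb2, Bnip3, Ankrd37 and Ak4. Alternatives were other scaling factors and filters, limma 3.58.1 on log2(FPKM + 1), DESeq2 1.42.0, a replicate block, only the genotypes compared, copies added (genes with at least 50% of their words in the transcripts of 1 of the 35), and leaving out each library. Adding pseudogenes at 10% of words was chosen after seeing the data. Isozyme protein sequences were not analysed here. Alignment used Biopython 1.88 and figures matplotlib 3.10.9.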

Additional observations from a re-analysis of the deposited data

How the results depend on the processing

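Counts of called genes stayed within 1.5 times under all alternatives in KO over WT (main count 21) and Het over WT (20). In KO over Het (8) limma on log2(FPKM + 1) gave 5. Leaving out 1 library at a time gave 18 to 21 in KO over WT, 19 to 20 in Het over WT and 3 to 9 in KO over Het, the 3 without KO replicate 1 and the 4 without KO replicate 2. The replicate numbers did not pair the libraries: correlations of same-numbered libraries ran from -0.106 to 0.0844. With the replicate block the counts were 20, 19 and 7, and the lost calls are named beside the genes. Adding the copies gave 20, 19 and 8. It reversed Gapdh to -0.28 in KO over WT and -0.33 in Het over WT and Eno1 to -0.018 in Het over WT, and adding further pseudogenes gave -0.29, -0.33 and -0.018. The other sign changes were of genes called neither way, and their cause was not tested. In KO over WT, Pgk1 gave 0.022 with upper-quartile factors, 0.012 with no filter, 0.035 with limma and 0.0014 with only the genotypes compared. Slc16a3 gave 0.021, 0.011, 0.017 and 2.8e-04 under these settings, and Pfkm gave 0.0065 with limma. In Het over WT, Pfkm gave 0.024 with upper-quartile factors, 0.0040 with no filter and 0.038 with limma, and Pgk1 gave 0.0069 with limma. In KO over Het, Adm gave -0.0017 with limma. Without 1 library at a time, log2 fold changes in KO over WT ran from -0.032 to 0.031 for Pgk1, -0.16 to 0.13 for Slc16a3, -0.056 to 0.016 for Pfkm and -0.056 to 0.28 for Ak4. In Het over WT they ran from -0.030 to 0.039 for Pfkm, -0.032 to 0.097 for P4ha1, -0.0077 to 0.16 for Pfkl, -0.069 to 0.094 for Pfkfb2 and -0.15 to 0.0050 for Mxi1. In KO over Het they ran from -0.027 to 0.067 for Aldoa, -0.063 to 0.028 for Aldoc, -0.064 to 0.019 for Pfkm, -0.012 to 0.085 for Pdk1, -0.054 to 0.043 for Hif1a, -0.40 to 0.31 for Adm, -0.0067 to 0.075 for Tpi1 and -0.11 to 0.024 for Hk2. Besides the gained calls named in the report (Ankrd37, Epas1, Pfkl and Ak4), calls gained in KO over Het were those of Gpi1 (upper-quartile factors, the 1 CPM filter, DESeq2, further pseudogenes, and without Het replicate 1), Pkm (DESeq2 and without KO replicate 3), Eno1 (without Het replicate 3) and Ldhb (without WT replicate 1 or 3), and in Het over WT that of Tpi1 (without Het replicate 2). The KO over Het calls of Egln3, Ndrg1 and Mxi1 held under every alternative run. Genes near 1 CPM, such as Adm and Ankrd37, rest on few reads, and a lack of a call there sets only a wide interval.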

Other observations

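Of 7 pentose phosphate genes, all tested, 4 rose and 2 fell in KO over WT and 3 rose and 2 fell in Het over WT, where 52.8% and 45.9% of all genes were called. The median log2 fold change in KO over WT was 0.16. In the non-oxidative arm, which makes ribose for nucleotides, Rpia rose by 0.71 (SE 0.08, adjusted p = 1.1e-06), Tkt by 0.30 (SE 0.06, adjusted p = 6.8e-04) and Taldo1 by 0.17 (SE 0.06, adjusted p = 0.021) in KO over WT, while Rpe was not called (0.025, adjusted p = 0.84). In the oxidative arm, which makes NADPH, its entry enzyme G6pdx rose by 0.16 (SE 0.06, adjusted p = 0.023), Pgls fell by 0.39 (SE 0.07, adjusted p = 1.7e-04) and Pgd fell by 0.32 (SE 0.05, adjusted p = 7.2e-05). The called genes of the oxidative arm thus went both ways, while those of the non-oxidative arm all rose. G6pdx, Rpe, Pgls and Taldo1 share at least 10% of their 31-base words with other genes and are uncertain. G6pdx and Rpe were outside the rule for named genes and were added after their values were seen.

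Of 14 glycogen genes, all tested, 2 rose and 8 fell in KO over WT, 8 fell in Het over WT and 2 rose in KO over Het. Of all genes, 52.8% were called in KO over WT (26.3% lower), 45.9% in Het over WT (23.4% lower) and 16.7% in KO over Het. The list had a median log2 fold change of -0.28 in KO over WT and -0.27 in Het over WT. Phkg1, a phosphorylase kinase subunit, fell by 1.42 (SE 0.39, adjusted p = 0.0054) in KO over WT, but its WT mean rests on WT replicate 3. It had 0.349, 0.724 and 0.498 CPM in KO, 0.738, 0.541 and 0.726 CPM in Het and 0.858, 1.02 and 2.28 CPM in WT, shares 13.9% of its words with other genes and overlaps Sumf2 on the opposite strand. Pygm, the muscle-type glycogen phosphorylase that brain astrocytes also use, fell by 0.59 (SE 0.19, adjusted p = 0.018) and Gbe1, the branching enzyme, by 0.53 (SE 0.15, adjusted p = 0.0065) in KO over WT. Pygl, the liver-type phosphorylase, rose by 0.35 (SE 0.13, adjusted p = 0.027) and Gys1, glycogen synthase, by 0.21 (SE 0.08, adjusted p = 0.047). Summed over the 14 genes, levels were 398 to 416 CPM in KO, 391 to 398 CPM in Het and 461 to 493 CPM in WT. Pygb made up much of the difference from WT, with means of 182 CPM in KO, 176 CPM in Het and 221 CPM in WT. Markers of astrocytes, the cells in which brain glycogen is mainly stored, were likewise lower in KO and Het than in WT. They summed to 477 to 549 CPM in KO, 535 to 579 CPM in Het and 1089 to 1154 CPM in WT, with overlap between KO and Het. The part of these markers in the glycogen values was not tested.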
